A study of Mus musculus with 6 samples.

Results

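The genes described here encode 10 enzymes and carriers that move carbon around pyruvate and the citric acid cycle in the beta cell. They are the fructose bisphosphatases Fbp1 and Fbp2, the cytosolic phosphoenolpyruvate carboxykinase Pck1, pyruvate carboxylase Pcx, the malic enzymes Me1 and Me3, the malate dehydrogenases Mdh1 and Mdh2, the citrate carrier Slc25a1 and the cytosolic isocitrate dehydrogenase Idh1. They were taken by symbol from the deposited table, where all 10 were present among 23087 genes with 1 locus each. The RNA came from beta cells, which make insulin in the islets of the pancreas. They were sorted by flow cytometry from female mice on a mixed 129J-C57BL/6 background. Wild type (WT) mice were compared with mice whose floxed FoxO1 gene had been cut out in beta cells by RIP-Cre, a Cre recombinase under a rat insulin promoter (IKO). The labels describe the controls as wild type and do not say whether they carried Cre or floxed alleles. Each genotype was sampled at 3 months nulliparous (young below), at 12 months nulliparous (aged below), and at 12 months after 3 pregnancies (multiparous below). In the multiparous mice, the WT library was labelled NGT and the IKO library DM, and what these labels mark cannot be told apart here from genotype or parity. There was 1 library for each of the 6 groups, and the number of animals behind a library is not given in the labels. A difference between 2 libraries therefore has no replicate behind it.

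Beta cells burn most of their glucose through glycolysis and mitochondrial oxidation and carry high pyruvate carboxylase. This enzyme refills the citric acid cycle with oxaloacetate (anaplerosis). Malate, citrate or isocitrate leaving the mitochondrion can then be turned back into pyruvate or 2-oxoglutarate by malic enzyme or isocitrate dehydrogenase, which yields cytosolic NADPH and is known as pyruvate cycling. Fructose bisphosphatase works against glycolysis, since it removes a phosphate from fructose bisphosphate in the gluconeogenesis of liver and kidney. Raising Fbp1 experimentally in islets has been reported to lower glucose use and insulin secretion. In liver, FoxO1 is known as an activator of gluconeogenic genes.

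Fbp1 (chr13:62864753-62888282, mm10) and Fbp2 (chr13:62836885-62858370) lie side by side on the minus strand, with 6382 bases and 0 annotated genes of the GENCODE basic set between them. Fbp2 is thus downstream of Fbp1. Their promoter windows are shown because both genes had their lowest level in the same library, multiparous IKO, which was also the lowest for Idh1. RefSeq gives them on GRCm38.p6 as 250 bases before and 50 after the annotated start, minus strand, at chr13:62888233-62888532 for Fbp1 and chr13:62858351-62858650 for Fbp2. Capitals mark matches to the motifs searched on both strands, which were the forkhead core GTAAACA, the cAMP response element TGACGTCA and the hypoxia response core ACGTG.
Fbp1: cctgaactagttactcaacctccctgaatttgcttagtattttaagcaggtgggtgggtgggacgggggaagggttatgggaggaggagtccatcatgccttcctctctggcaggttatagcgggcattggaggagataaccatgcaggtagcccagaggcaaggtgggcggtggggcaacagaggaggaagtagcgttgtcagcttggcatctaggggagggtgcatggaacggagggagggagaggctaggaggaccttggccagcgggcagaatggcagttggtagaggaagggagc
Fbp2: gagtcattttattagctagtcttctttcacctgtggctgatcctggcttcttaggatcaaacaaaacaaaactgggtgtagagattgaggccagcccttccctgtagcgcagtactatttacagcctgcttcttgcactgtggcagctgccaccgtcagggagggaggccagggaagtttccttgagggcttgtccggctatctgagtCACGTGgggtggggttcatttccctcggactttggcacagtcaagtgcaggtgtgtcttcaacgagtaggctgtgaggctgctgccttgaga

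The Fbp1 window held 0 of the 3 motifs. The Fbp2 window held the hypoxia response core on both strands as the palindrome CACGTG, first at position -42 from the start, where the 2 matches overlap. Over the promoter windows of all 10 genes (13 windows, as some genes have more than 1 start), the forkhead core was found in 0 genes, the cAMP response element in 1 (Mdh2) and the hypoxia response core in 5 (Fbp2, Mdh1, Me1, Pcx and Slc25a1). Of 32851 mouse windows of the same length, 3.65%, 1.79% and 19.6% held them. These shares are per window, whereas the 10 genes were counted over 13 windows, so the units differ. These are matches of letters in a short window and not binding sites. GTAAACA was the only forkhead form searched, so its absence does not show that a window lacks other forms.

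The values are FPKM, fragments scaled to transcript length and to the fragments mapped. Foxo1 was at 5.67 to 8.93 FPKM in the 3 WT libraries and at 0.410 to 0.656 in the 3 IKO libraries (log2 difference -2.48, SE 0.11, limma adjusted p = 0.0757). The beta cell hormone genes Ins1, Ins2 and Iapp were listed at 0 throughout, which can be a failed estimate, while Chga was at 3625 to 10936 FPKM. The aged WT library stood apart. Across genes its correlation with any other library was 0.955 to 0.961, and the other 5 libraries correlated among themselves at 0.982 to 0.993. The summed acinar markers (19 genes, 8 of them with a mean of at least 1 FPKM) were highest there, at 102 FPKM against 5.02 to 39.4, although the acinar factors Ptf1a and Rbpjl were below 0.1 everywhere. Alpha cell markers summed to 1164 FPKM there against 404 to 891, delta cell markers to 616 against 157 to 252, and Ppy was at 990 against 219 to 361. Beta cell markers also summed highest there, at 11932 against 4387 to 5884, carried by Chga at 10936. Across the 6 libraries, endothelial markers summed to 4.18 to 9.82 FPKM, immune markers to 22.2 to 29.1 and fibroblast and stellate markers to 0.422 to 2.45. Duct markers summed to 492 to 612, carried by Krt7 and Spp1 with Sox9 below 0.1 everywhere. Adipocyte markers summed to 38.8 to 94.8, carried by Lpl, with 6 of 8 below 0.1 everywhere. Of the 5 red cell markers only Alas2 could be used, at 0.0110 FPKM or less. In bulk RNA, fewer cells of a type and less RNA per cell cannot be told apart.

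The depth was read from low genes, whose FPKM values step by what 1 fragment is worth. Of 2980 low genes with 1 start site, 1500 were whole multiples of 1 step within 0.08 of a fragment. Relative to the young WT library, 1 fragment was worth 0.98 to 1.30 times as much FPKM in the others. With annotated transcript lengths this corresponds to about 43800000 to 57900000 fragments per library. Fragment numbers per gene below are estimates on that scale, and their intervals (exact, 95%) cover counting error only, not variation between mice.

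Fbp1 was the gene of the set that differed most between libraries among those above 5 FPKM. It was at 16.5, 13.3 and 11.8 FPKM in young, aged and multiparous WT and at 10.7, 16.5 and 5.96 in IKO of the same stages. The multiparous IKO library was lowest, about 476 fragments against 860 to 1385 in the others, and its counting interval (5.43 to 6.51 FPKM) overlapped no other. Down from the top, the aged IKO and young WT libraries had overlapping counting intervals. So did the aged and multiparous WT libraries, and the multiparous WT and young IKO libraries. The genotypes overlapped, with WT at 11.8 to 16.5 FPKM and IKO at 5.96 to 16.5.

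Between the 12-month IKO libraries, Fbp1 was at 0.36 times its nulliparous level after 3 pregnancies (95% counting interval 0.32 to 0.40). This was the 1 call among the 7 members with at least 5 FPKM in either library of that pair, under the rule of a log2 ratio of FPKM + 1 of at least 1 in size. Its log2 ratio was -1.33, and 0.487% of the 8209 genes compared passed the rule in either direction (0.280% lower). That ratio was larger in size than those of 99.8% of the genes, but the members were chosen with earlier results of these data known. In WT the multiparous level was 0.89 times the nulliparous one (0.81 to 0.98), a log2 ratio of -0.16 that became 0.00 after rescaling without the 20 highest genes. In the same IKO pair the summed acinar markers were at 5.02 FPKM in the multiparous and 39.4 in the nulliparous library. Delta cell markers were at 157 and 177, beta cell markers at 5190 and 5884 and Lpl at 38.1 and 64.6, in the same order. Duct markers (612 and 492), Ppy (361 and 239) and endothelial markers (4.55 and 4.38) went the other way. Alpha cell markers were at 404 and 612, with Gcg at 175 and 348 but Gpx3 at 85.2 and 23.5. The part of these markers in the Fbp1 difference was not tested.

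Between the multiparous libraries, Fbp1 was at 0.51 times the WT level in IKO (0.45 to 0.56, log2 ratio -0.88), short of 2-fold on the scale with 1 added. In that pair 0.221% of 8163 genes passed the rule, and 99.7% had a smaller ratio in size. This comparison and the parity comparison in IKO share the multiparous IKO library, so they are not independent. The acinar sums were 5.02 FPKM in IKO and 6.55 in WT here, and the alpha cell sums 404 and 891. At 3 months, a pair of other libraries, Fbp1 was at 0.65 times the WT level in IKO (0.59 to 0.70, log2 ratio -0.58). Again 99.7% of genes had a smaller ratio, and 0.111% of 8114 passed 2-fold. Acinar markers were at 18.9 FPKM in IKO and 9.15 in WT at that age. At 12 months nulliparous the direction was opposite, with IKO at 1.24 times WT (1.14 to 1.36), but 3.88% of 8349 genes passed 2-fold there and 50.5% had a smaller ratio.

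**Figure D1:**
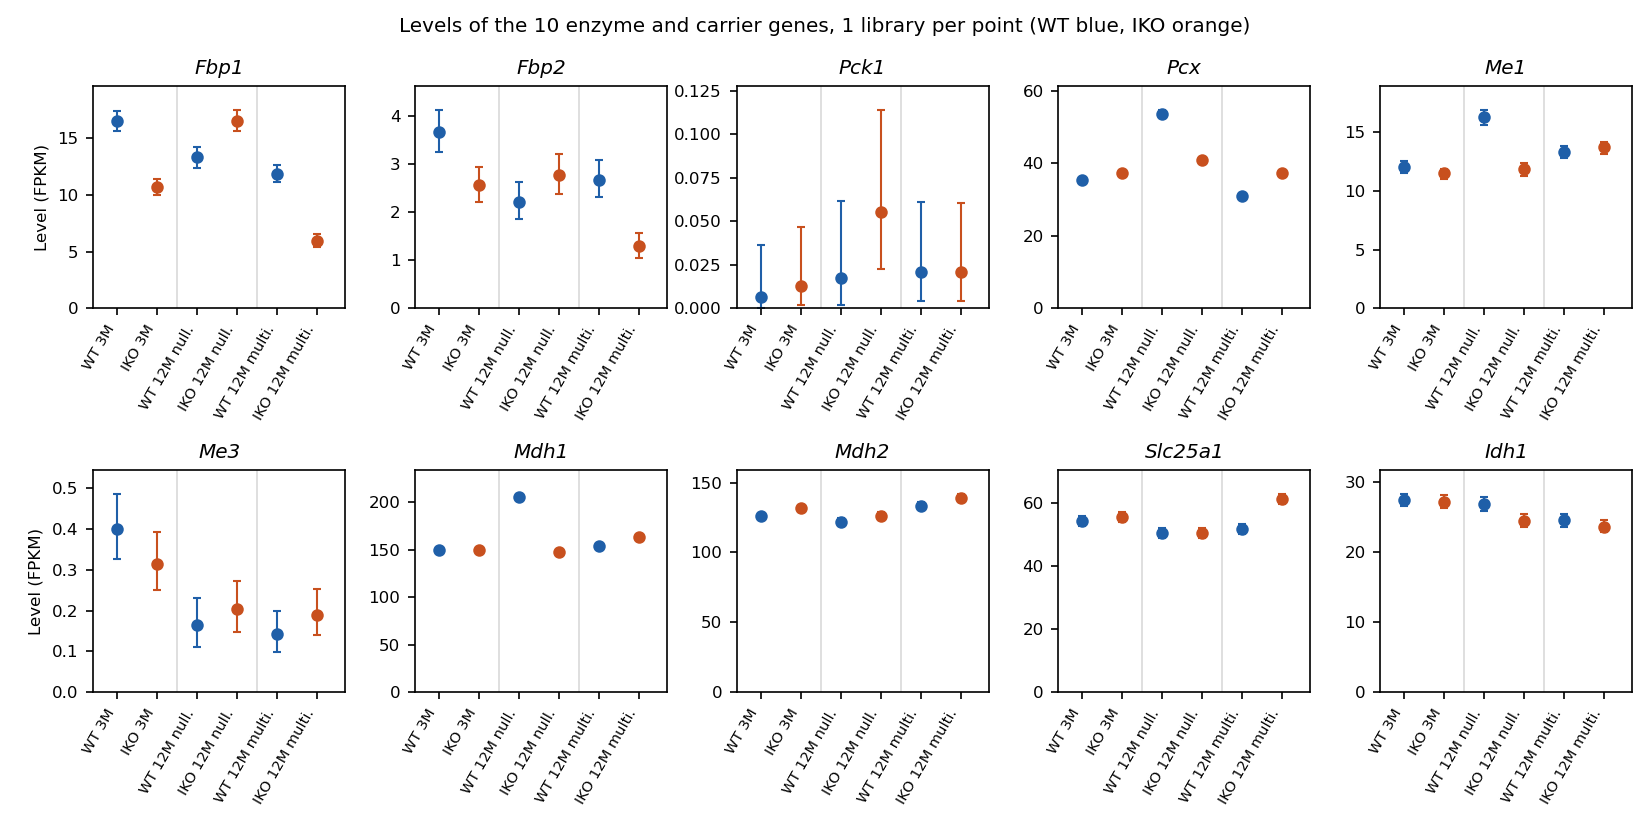
Level of each of the 10 genes in FPKM (vertical axis, from 0) in the 6 libraries (horizontal axis), with WT in blue and IKO in orange; bars are 95% counting intervals from estimated fragments and do not show variation between mice. Fbp1 and Fbp2 are lowest in the multiparous IKO library, at 5.96 and 1.29 FPKM, and Pcx, Me1 and Mdh1 are highest in the aged WT library.

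Fbp2, the form of the enzyme best known from muscle, was at 3.66, 2.21 and 2.67 FPKM in young, aged and multiparous WT and at 2.55, 2.77 and 1.29 in IKO of the same stages. Like Fbp1 it was lowest in the multiparous IKO library, on about 94 fragments against 131 to 282. At 3 months IKO was at 0.69 times WT (0.58 to 0.84), and in the multiparous pair at 0.48 times WT (0.37 to 0.62). In the aged pair the ratio was 1.25 (0.99 to 1.58). The multiparous IKO level was 0.47 times the nulliparous IKO one (0.36 to 0.60), whereas in WT at 12 months this parity ratio was 1.21 (0.96 to 1.52). Fbp2 never reached 5 FPKM and so was outside the 2-fold rule.

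Per length, Fbp1 made up 80.7% to 85.7% of the FPKM of both phosphatases. The ratio of Fbp1 to Fbp2 was 4.50, 6.00 and 4.41 in young, aged and multiparous WT and 4.19, 5.96 and 4.62 in IKO. The aged libraries of both genotypes had the highest ratios, and the other 4 lay within 4.19 to 4.62. The coding sequences (1017 and 1020 bases) were identical at 69.9% of aligned bases, and the longest exact run shared by the transcripts was 23 bases against reads of 100 bases. Over the 6 libraries the log2 values of both genes correlated at r = 0.897, as a description of 6 points with shared libraries.

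**Figure D2:**
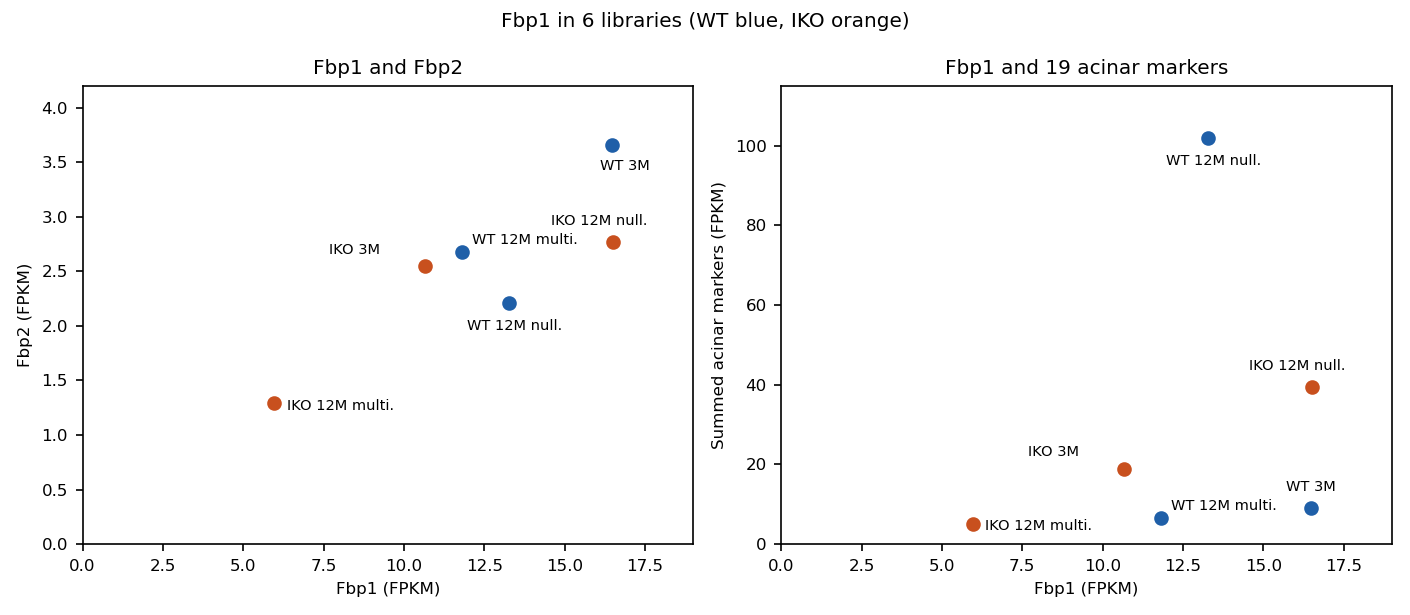
Left, Fbp2 against Fbp1, and right, the summed level of 19 acinar markers against Fbp1, both in FPKM with 1 point per library (WT blue, IKO orange). Fbp1 and Fbp2 are both lowest in the multiparous IKO library, whereas the acinar sum is highest, at 102 FPKM, in the aged WT library.

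By the rule for likeness, 569 genes averaging at least 5 FPKM were ranked by their correlation with Fbp1 over the 6 libraries. The first 5 were Snora28 (r = 0.907), Cacna2d1 (0.894), Zfp365 (0.854), Snora31 (0.845) and Lpl (0.826). Snora28, Cacna2d1 and Snora31 were listed at 0 in the multiparous IKO library alone, so their rank rests on values that may be failed estimates. Zfp365 was at 6.06, 5.69 and 7.31 FPKM in young, aged and multiparous WT and at 5.68, 9.88 and 3.00 in IKO of the same stages. Lpl, the lipoprotein lipase gene, had 94.4, 60.8 and 63.3 FPKM in the WT libraries, in the same order, and 73.7, 64.6 and 38.1 in the IKO libraries. Over the 5 libraries without the aged WT one, Star, which carries cholesterol into mitochondria in steroid-forming cells, came first of 111 genes (r = 0.921), ahead of Snora28, Cacna2d1, Zfp365 and Lpl. Star had 15.0, 6.07 and 6.97 FPKM in the WT libraries and 8.67, 11.6 and 4.89 in the IKO libraries.

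Pck1 (chr2:173153073-173159253), which makes phosphoenolpyruvate from oxaloacetate in the cytosol, was at the limit of detection. Its values of 0.00657 to 0.0554 FPKM were whole multiples of 1 step, equal to 1, 2 and 3 fragments in young, aged and multiparous WT and 2, 7 and 3 in IKO. Over the 6 libraries these make 18 fragments, too few for any comparison. Pck2, the mitochondrial form, was at 80.0, 92.0 and 61.7 FPKM in young, aged and multiparous WT and at 78.5, 78.2 and 57.0 in IKO of the same stages. Both multiparous libraries were thus below all 4 nulliparous ones for Pck2, a gene singled out after its values were seen. The share of all genes in this order was not computed.

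Pcx (chr19:4510472-4621752), with 2 start sites in the table, was at 35.3, 53.6 and 31.0 FPKM in young, aged and multiparous WT and at 37.4, 40.9 and 37.4 in IKO. The highest value was that of the library that stood apart. Leaving that library aside, the range was 31.0 to 40.9 FPKM, and the multiparous WT library was lowest. Multiparous IKO was at 1.21 times multiparous WT (1.17 to 1.25), and young IKO at 1.06 times its WT (1.03 to 1.09). Between the IKO libraries at 12 months the multiparous level was 0.91 times the nulliparous one (0.89 to 0.94). Set against Fbp1 per length, Pcx was 2.14, 4.04 and 2.63 times as high in young, aged and multiparous WT and 3.51, 2.48 and 6.27 times in IKO. The multiparous IKO library, with the lowest Fbp1, had the highest ratio.

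The malic enzymes turn malate into pyruvate, Me1 in the cytosol and Me3 in the mitochondrion. Me1 (chr9:86581363-86695914) was at 12.0, 16.3 and 13.3 FPKM in young, aged and multiparous WT and at 11.5, 11.9 and 13.7 in IKO of the same stages. The aged WT library was highest, and the other 5 lay within 11.5 to 13.7 FPKM. Multiparous IKO was at 1.15 times nulliparous IKO (1.08 to 1.22). Me3 (chr7:89632818-89854359) was far lower, at 0.399, 0.164 and 0.142 FPKM in young, aged and multiparous WT and at 0.315, 0.204 and 0.190 in IKO of the same stages. Both 3-month libraries, on about 102 and 82 fragments, were above all 4 12-month libraries, which had about 32 to 46. The share of all genes in that order was not computed. From 3 to 12 months nulliparous the Me3 ratio was 0.41 in WT (0.26 to 0.61) and 0.65 in IKO (0.43 to 0.94). Me3 was below 1 FPKM in every library and entered neither the 2-fold rule nor the fit. Per length Me1 exceeded Me3 30.2-fold in the young WT library and 36.3-fold in IKO, and by 58.3 to 99.0-fold at 12 months.

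Malate dehydrogenase links malate to oxaloacetate on both sides of the mitochondrial membrane, with Mdh1 in the cytosol and Mdh2 in the matrix. Both were among the most abundant messages of the set, above 98.0% and 97.3% of expressed genes by mean level. Mdh1 (chr11:21556692-21571934) was at 150, 206 and 154 FPKM in young, aged and multiparous WT and at 150, 148 and 164 in IKO. Again the library that stood apart was the high one, and the other 5 stayed within 148 to 164. Mdh2 (chr5:135778649-135790386) stayed between 122 and 139, with 126, 122 and 133 FPKM in the WT libraries and 132, 126 and 139 in the IKO libraries. The IKO library was above its WT partner at each stage for Mdh2, by 1.04, 1.03 and 1.04 times, but the second of these turned to a log2 ratio of -0.04 after rescaling by the median ratio. The ratio of Mdh1 to Mdh2 was 1.14 to 1.19 in 5 libraries and 1.69 in the aged WT one.

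Slc25a1 (chr16:17925211-17928219), which exports citrate from the mitochondrion, was at 54.3, 50.5 and 51.8 FPKM in young, aged and multiparous WT and at 55.6, 50.4 and 61.4 in IKO of the same stages. The multiparous IKO library was highest, at 1.22 times nulliparous IKO (1.17 to 1.27) and 1.18 times multiparous WT (1.14 to 1.23). Idh1 (chr1:65158616-65186479), which makes cytosolic NADPH from isocitrate, had 27.4, 26.9 and 24.5 FPKM in the WT libraries and 27.2, 24.4 and 23.6 in the IKO libraries, again from young to multiparous. From 3 to 12 months nulliparous it was at 0.90 times in IKO (0.85 to 0.94) and 0.98 times in WT (0.93 to 1.03).

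**Figure D3:**
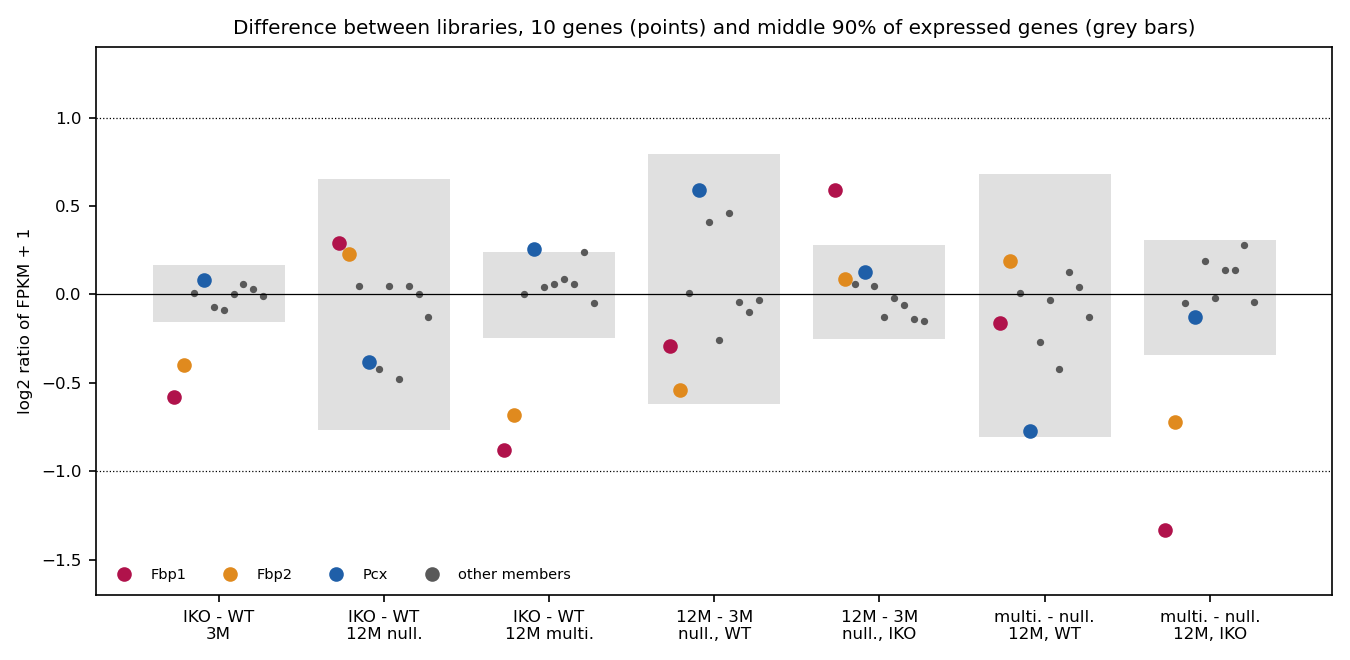
Log2 ratio of FPKM + 1 (vertical axis) of the 10 genes in the 7 pairs of libraries (horizontal axis), with grey bars for the middle 90% of genes averaging at least 1 FPKM and dotted lines at 2-fold. Fbp1 at -1.33 in the last pair is the single member past 2-fold, and the grey bars are widest in the 3 pairs that hold the aged WT library.

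Ageing was compared within nulliparous mice. Fbp1 was at 1.55 times its 3-month level at 12 months in IKO (1.42 to 1.69), where 0.256% of 8209 genes passed the 2-fold rule, and at 0.81 times in WT (0.74 to 0.88), where 4.19% of 8310 did. No member passed the rule in either pair. Acinar markers went from 18.9 to 39.4 FPKM in IKO and from 9.15 to 102 in WT across the same pairs, and their part was not tested. In WT, Pcx, Me1 and Mdh1 were at 1.52, 1.35 and 1.38 times their 3-month levels, against 1.09, 1.04 and 0.98 times in IKO. The log2 ratios in WT, 0.59, 0.41 and 0.46, were 0.39, 0.22 and 0.26 after rescaling without the 20 highest genes. In the WT parity pair, with the same aged library, 4.89% of 8356 genes passed 2-fold and 0 of 7 members did.

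The fit that used a spread was limma with additive terms for genotype and stage, which left 2 residual degrees of freedom. It covered 8 of the 10 genes, those with a mean of at least 1 FPKM. It called 0 of these 8 for genotype, age or parity at a Benjamini-Hochberg adjusted p under 0.05. Over all 11131 genes it called 0%, 0.0270% and 0.0270%. At an unadjusted p under 0.05 it gave 1.62%, 4.33% and 7.40% of all genes and 0 of the 8. For parity the log2 difference was -0.74 for Fbp1 (SE 0.30, lower in both genotypes as deposited, limma adjusted p = 0.646), -0.26 for Fbp2 (SE 0.24, adjusted p = 0.676) and -0.45 for Pcx (SE 0.19, adjusted p = 0.646). For genotype it was -0.39 for Fbp1 (SE 0.24, lower in IKO at 2 of 3 stages, limma adjusted p = 0.923) and -0.28 for Fbp2 (SE 0.19, adjusted p = 0.923). The median over the 8 genes was -0.10 for genotype, 0.05 for age and -0.11 for parity, against 0.02, -0.01 and 0.01 over all genes.

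The fit depended on single libraries. For genotype, the log2 difference of Fbp1 was -0.73 without either aged library and -0.14 without either multiparous one, and that of Fbp2 was -0.54 and -0.08. For parity, Pcx was at -0.17 without the aged WT library and at -0.73 without the aged IKO library. Without the aged WT library, Fbp1 was called lower with parity at a log2 difference of -1.26 (SE 0.11, limma adjusted p = 0.0256), among 2.67% of all genes. The nulliparous side at 12 months was then the 1 IKO library, assumed to vary like the others. Over the 14 alternatives the adjusted p for Fbp1 ran from 0.0256 to 0.819 and the log2 difference from -1.26 to -0.23. Without the aged IKO library, limma called 3 members for parity (Pcx, Me1 and Mdh1, all lower) and 5 for age. In that fit 56.8% and 54.3% of all genes were called, and the library that stood apart was alone at its stage.

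The wider pathway was followed in 75 further genes in 7 lists, of which 67 had a mean of at least 1 FPKM. limma called 0 of the 67 in any contrast. For parity 36 were above 0 and 31 below, with a median log2 difference of 0.01, the same as over all genes. An unadjusted limma p under 0.05 was reached by 8 of 67 (11.9%) against 7.40% of all genes. The lists were chosen with earlier results of these data known, so these shares are a description only. For genotype 43 were above 0 and 24 below, with a median of 0.05, and for age 28 and 39, with a median of -0.03. Genes named below as highest in a list were picked by their parity difference. Where their multiparous and nulliparous libraries lie apart, this is therefore not separate support. The share of all genes in such an order was not computed.

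Pfkfb3, which makes the fructose 2,6-bisphosphate that inhibits Fbp1 and activates phosphofructokinase, was the 1 gene of these lists past 2-fold in any pair. It was at 3.06, 1.82 and 5.88 FPKM in young, aged and multiparous WT and at 2.43, 2.49 and 4.93 in IKO of the same stages. Both multiparous libraries were above all 4 nulliparous ones, with a log2 difference of 1.03 for parity (limma adjusted p = 0.383). It passed the rule in the WT pair, where 1.30% of genes were called higher. That pair holds the library that stood apart, and Pfkfb3 reached 5 FPKM in the multiparous WT library alone. Among gluconeogenic genes the lowest parity difference was that of Gpd2, the mitochondrial glycerol phosphate dehydrogenase, at 14.4 and 11.2 FPKM in aged and multiparous WT and 18.0 and 10.2 in IKO (log2 difference -0.55, limma adjusted p = 0.582). The list's median was -0.05, with 4 of 9 above 0.

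Pyruvate entry into mitochondria had 7 of 12 genes above 0 for parity and a median of 0.01. Pdk1, a kinase that switches off pyruvate dehydrogenase, was highest at a log2 difference of 0.79 (limma adjusted p = 0.397). It was at 6.41, 5.60 and 12.0 FPKM in young, aged and multiparous WT and at 5.49, 6.60 and 10.5 in IKO of the same stages. The multiparous libraries did not overlap the nulliparous ones. Mpc2, a subunit of the mitochondrial pyruvate carrier, was lowest at -0.57 and followed the library that stood apart, at 85.4 FPKM there and 41.8 to 50.2 elsewhere.

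**Figure D4:**
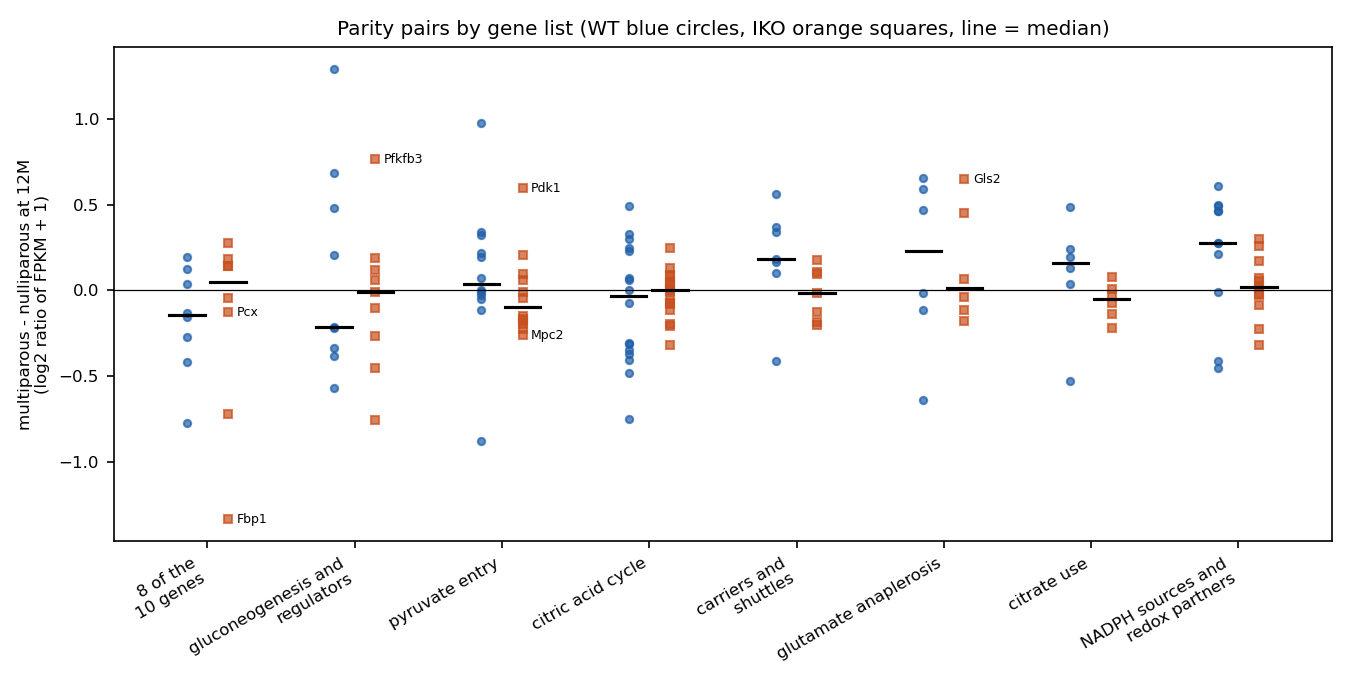
Log2 ratio of FPKM + 1 between multiparous and nulliparous libraries at 12 months (vertical axis) for the genes averaging at least 1 FPKM in each list (horizontal axis), with WT as blue circles, IKO as orange squares and black lines for medians. The IKO medians lie between -0.10 and 0.05, and Fbp1 at -1.33 is the lowest point.

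Of the 16 citric acid cycle genes, 5 were above 0 for parity, with a median of -0.04. Citrate synthase (Cs) was highest at 0.19 and the succinate dehydrogenase subunit Sdhb lowest at -0.36, with 132 FPKM in the library that stood apart and 77.2 to 83.2 elsewhere. Carriers and shuttle enzymes had 5 of 7 above 0 and a median of 0.08, from Slc25a11, the oxoglutarate carrier, at -0.15 to Slc25a22, a glutamate carrier, at 0.37. Glutamate genes had 3 of 6 above 0 and a median of 0.07. Gls2, a glutaminase, was at 1.24, 1.25 and 2.55 FPKM in young, aged and multiparous WT and at 1.64, 1.65 and 3.17 in IKO of the same stages. It was higher in IKO at every stage and higher in both multiparous libraries than in any nulliparous one (parity log2 difference 0.66, limma adjusted p = 0.337). Glul, glutamine synthetase, was lowest of that list at -0.09.

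Genes that use citrate had 5 of 6 above 0 for parity and a median of 0.07. Acly, which splits exported citrate, was highest at 0.14 with 398 FPKM in the library that stood apart and 558 to 654 elsewhere, and Mlycd, malonyl-CoA decarboxylase, was lowest at -0.30. Sources of NADPH and their redox partners had 7 of 11 above 0 and a median of 0.15. H6pd, a hexose phosphate dehydrogenase of the endoplasmic reticulum, was highest at 0.38, with 10.9 and 11.5 FPKM in the multiparous libraries and 7.47 to 9.12 in the others. Taldo1, transaldolase, was lowest at -0.24.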

How the data were processed

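RNA-seq of sorted beta cells gave 6 libraries, 1 per group. The authors deposited FPKM values per gene. Libraries were directional and poly-A selected, with 100-base paired reads, per the labels' protocols. TopHat, Cufflinks, Cuffdiff and mm10 are named, without versions, per the submitters' processing notes. FPKM depends on the gene models, and a few very abundant genes can lower all others.

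Symbols at more than 1 locus (260 symbols, 758 of 23845 rows) were left out. Starts in the table count from 0, so 1 was added. No ratio was formed against a value listed at 0. Ratios were taken on log2(FPKM + 1), which understates changes of low genes. A gene counted as different when the log2 ratio was at least 1 in size and 1 library of the pair had at least 5 FPKM. limma 3.58.1 (R 4.3.3) was fitted to log2(FPKM + 1) of genes averaging at least 1 FPKM, with a trend, additive terms for genotype and stage and Benjamini-Hochberg adjustment. Where genotype acts differently by stage, this model takes the difference as error. Its p-values reflect no more than the scatter of these 6 libraries, which may be technical.

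Fragments per gene were estimated from the FPKM step of 233 low genes with 1 annotated transcript and GENCODE M21 lengths (quartiles 52800000 to 59100000 fragments for the young WT library). Counting intervals of ratios are exact binomial ones at 95%. Levels between genes were compared only per length. All members were named. Of the pathway lists, genes past the 2-fold rule in any pair and the highest and lowest parity difference per list were named. For likeness to Fbp1, genes averaging at least 5 FPKM with a log2 range of at least 1 were ranked. The members and lists were chosen with earlier results of these data known. Alternatives were other pseudocounts, filters and scalings, moderation without a trend, genes listed at 0 left out, and each library left out in turn.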

Additional observations from a re-analysis of the deposited data

Results flagged for a closer look

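In 4 of 50 comparisons of a log2 ratio between stages or genotypes, a member went in opposite directions by at least 0.25 on each side, a size chosen after the data were seen. All 4 use the aged (12-month nulliparous) WT library, and none of the differences was tested. Over genes averaging at least 1 FPKM, the median size of the ratio was 0.277 in the aged pair and 0.267 with age in WT. A size of 0.25 was thus ordinary on that side, against medians of 0.055 to 0.093 in the young, multiparous and IKO age pairs. The share of all genes meeting the rule was not computed. For Fbp1, IKO against WT was -0.58 in the young pair and 0.29 in the aged pair, which differ by 0.88, and it was -0.88 in the multiparous pair, a difference of -1.17 from the aged pair. The age ratio of Fbp1 was -0.29 in WT and 0.59 in IKO, a difference of 0.88. This repeats the difference between the young and aged pairs, from the same 4 libraries, and is not a separate result. The 50 comparisons include other such repeats. For Pcx, IKO against WT was -0.38 in the aged pair and 0.26 after pregnancies, a difference of 0.64. All 4 kept opposite directions under every other pseudocount and scaling run, but not that size. After rescaling by the median ratio, Fbp1 was at 0.22 in the aged pair and -0.24 with age in WT, so none of its 3 differences reached it. With a pseudocount of 5 these were 0.24 and -0.23, and Pcx was at 0.24 in the multiparous pair, so none of the 4 did. Without the 20 highest genes, Pcx was at -0.21 in the aged pair.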

How the results depend on the processing

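The Fbp1 call in the IKO parity pair held with a pseudocount of 0.1, without the filter and under both rescalings, and a pseudocount of 5 left 0 members past 2-fold. In the other 6 pairs the count stayed at 0 under every alternative run. Each move of the 70 member ratios was set against the mean arm of its counting interval on the log2 scale, not the full width. With a pseudocount of 0.1, 69 moved by less, and 60 did with a pseudocount of 5. With the median ratio 58 did, and 49 without the 20 highest genes. The Pck1 ratios, with intervals such as 0.10 to 115.77 at 3 months, could hardly move by more. Rescaling without the 20 highest genes moved the median ratio of all genes between the aged libraries from 0.07 to 0.22. The genes past 2-fold there went from 54 higher and 270 lower to 142 and 156, in the WT age pair from 292 and 56 to 152 and 138, and in the WT parity pair from 109 and 300 to 203 and 180. Idh1 turned from -0.13 to 0.04 between the aged libraries and in the WT parity pair. limma called 0 genes for genotype (180 at an unadjusted p under 0.05) and 1 with a pseudocount of 0.1. For parity it called 3, against 0 without the filter, 0 at a mean of at least 5 FPKM, 1 after rescaling without the 20 highest genes, and 0 without genes listed at 0, where age also had 0 against 3. With 1 library left out, the calls ranged from 2 to 9 for genotype, 17 to 6039 for age and 20 to 6319 for parity. The highest counts for age and parity came without the aged IKO library. With each library left out in turn, the log2 difference ran from -0.37 to 0.66 for Fbp1 with age and from -0.61 to 0.16 for Fbp2 with age, the ends being the fits without an aged library. It ran from -0.65 to 0.12 for Fbp2 with parity, turning without the aged IKO (0.12) or multiparous IKO library (0.04), and from -0.15 to 0.17 for Pcx with genotype. Pcx with genotype was 0.04 after rescaling without the 20 highest genes, against -0.01. The cause was not tested. No paired analysis was possible because each group held 1 library and no replicate number ties libraries across groups, although the stage term does compare the genotypes within each stage. Depth limits Pck1 and Me3, and animals behind each library are not described.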
